A study of Mus musculus with 6 samples.

Results

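The MHC class II genes described here are H2-Aa, H2-Ab1, H2-Eb1, H2-DMa, H2-DMb1, Cd74 and Ciita, taken as all array probes that the platform annotation gives to these 7 genes. There were 13 such probes among the 45281 of the array, and the 7 genes were among 19057 named genes, of which 10777 could be tested. Jejunum RNA came from 2 groups of male C57BL/6J mice, aged 8 weeks, that had all received 9 Gy TBI (total body irradiation). One group of 3 mice then received NeuroD-EGFP, in which the basic helix-loop-helix transcription factor NeuroD is joined to enhanced green fluorescent protein, and the other group of 3 mice received EGFP alone as the control protein, each at 0.1 mM by intraperitoneal injection. The tissue was collected at 12 h and each mouse was read on its own Illumina Mouse WG-6 beadchip array, so all values below come from irradiated jejunum and no unirradiated mouse enters a comparison.

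MHC class II molecules are paired alpha and beta chains that carry peptides from the endosome to the cell surface, where CD4+ T cells read them. The chains are assembled with the invariant chain, exchange it for peptide with the help of the DM molecule, and are transcribed together under the coactivator CIITA, which interferon-gamma induces in many cells. Dendritic cells, macrophages and B cells make class II constitutively, and in the small intestine villus epithelial cells also carry it. In RNA of whole tissue, fewer cells of a type and less RNA per cell cannot be told apart.

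The shared control of the class II genes that CIITA acts on is written in their promoters. These hold an X box, bound by the RFX complex, with an X2 box of the CREB type beside it. A Y box, bound by NF-Y, lies close to the start site. The H2 members lie in the MHC on chromosome 17. RefSeq promoters (build GRCm38.p6) were at hand for 4 of the 7 members. The sequences below are shown because they hold these boxes in members read by the array, with H2-DMb2 beside H2-DMb1 for comparison. Each runs 5′ to 3′ on the gene's strand and covers 100 bases, from 130 to 31 bases before the start site, and capitals mark an X1 box (in H2-Eb1 and H2-DMb1), an X2 box core (TGACG) and a Y box (TGATTGG). Positions are chr17:34287854-34287953 (minus strand) for H2-Aa, chr17:34305737-34305836 (plus strand) for H2-Eb1, chr17:34153061-34153160 (plus strand) for H2-DMb1 and chr17:34145119-34145218 (plus strand) for H2-DMb2, the paralog of H2-DMb1.
H2-Aa: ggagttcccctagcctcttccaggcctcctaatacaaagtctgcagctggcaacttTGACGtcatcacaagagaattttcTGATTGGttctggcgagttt
H2-Eb1: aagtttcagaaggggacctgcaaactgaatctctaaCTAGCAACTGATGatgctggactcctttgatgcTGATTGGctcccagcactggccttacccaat
H2-DMb1: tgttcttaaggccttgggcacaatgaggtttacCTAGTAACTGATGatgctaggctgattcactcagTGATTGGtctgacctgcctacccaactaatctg
H2-DMb2: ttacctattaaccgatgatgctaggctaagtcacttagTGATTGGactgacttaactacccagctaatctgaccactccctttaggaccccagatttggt

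The Y box began 50 bases before the start site in H2-Aa, 61 in H2-Eb1, 63 in H2-DMb1 and 92 in H2-DMb2. Between the X1 box and the Y box lay 20 bases in H2-Eb1 and 21 in H2-DMb1, and between the X2 core and the Y box 19 in H2-Aa. The X1 letters as searched were not found in H2-Aa, H2-DMa or H2-DMb2. The X1 box, searched as those capitals with any base at positions 5, 6 and 9 of the box, was rare, in 18 of 32851 promoters (0.0548%, both strands, 250 bases before the start), and its longer form with a C before it stood in 6 of them (0.0183%), with H2-DMb1 among the members. The Y box TGATTGG was in 7.23% of promoters, its core ATTGG in 33.8% and the X2 core TGACG in 17.8%. TGATTGG contains ATTGG, and the X1 and long Y spellings were chosen after the letters had been seen. The E box CANNTG, the kind of site NeuroD binds, was found in 66.2% of all promoters, at 232 and 87 bases before the start in H2-Aa and at 214 and 90 in H2-Eb1, where the nearer one overlaps the X1 box. In H2-DMb1 these letters did not occur within 250 bases. H2-DMa has 2 start sites in the table, and with the same letters a Y box core stood 198 and an E box 56 bases before the second. The X2 core and the Y box TGATTGG were found before neither start site of H2-DMa. A match to letters is a description only, and binding was not measured.

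To compare the mice, signals were put on a normalized log2 intensity scale, and a probe was tested where its signal was above the negative control beads (detection p under 0.05) on at least 3 of 6 arrays. All 13 class II probes were tested, and 12 were detected in every mouse. The 2 groups were compared with limma, adjusted over 19099 tested probes, and each gene is given by its brightest tested probe unless another is named. All differences are NeuroD-EGFP minus EGFP in log2 intensity. Their p-values measure the spread between these mice, 3 in each group. Before scaling, the NeuroD-EGFP arrays had a lower 75th percentile of signal (80.3 to 94.2) than the EGFP arrays (98.0 to 122), and between 18271 and 20408 probes were detected per array. EGFP mouse 3 had the most detected probes and stood apart in some epithelial transcripts. Apoa4, an apolipoprotein of villus enterocytes, had a log2 intensity of 14.58, 14.66 and 14.59 in NeuroD-EGFP mice 1 to 3, against 14.51, 14.46 and 11.17 in EGFP mice 1 to 3. The class II values, and the list medians or correlations that moved most, are therefore given without it as well.

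All 7 class II genes had a lower mean in the NeuroD-EGFP mice, by 0.03 to 0.42 on the log2 scale, and none of them passed the test. Over all tested genes, 49.2% had a lower mean in the NeuroD-EGFP mice. The median difference of the 7 genes was -0.30, against 0.0047 for all 10777 genes. None of the 7 was called at an adjusted p under 0.05 from limma, where 0% of all tested genes were called and the smallest adjusted p of any gene was 0.405. At an unadjusted p under 0.05 there were 0 of the 7 as well, where 4.76% of all tested genes passed, 2.56% lower and 2.2% higher. The values of the 2 groups overlapped in all 7 genes, whereas 11.4% of all tested genes had groups that did not overlap. These genes share their mice and much of their variation, as shown further on, so 7 lower means are not 7 separate observations.

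**Figure D1:**
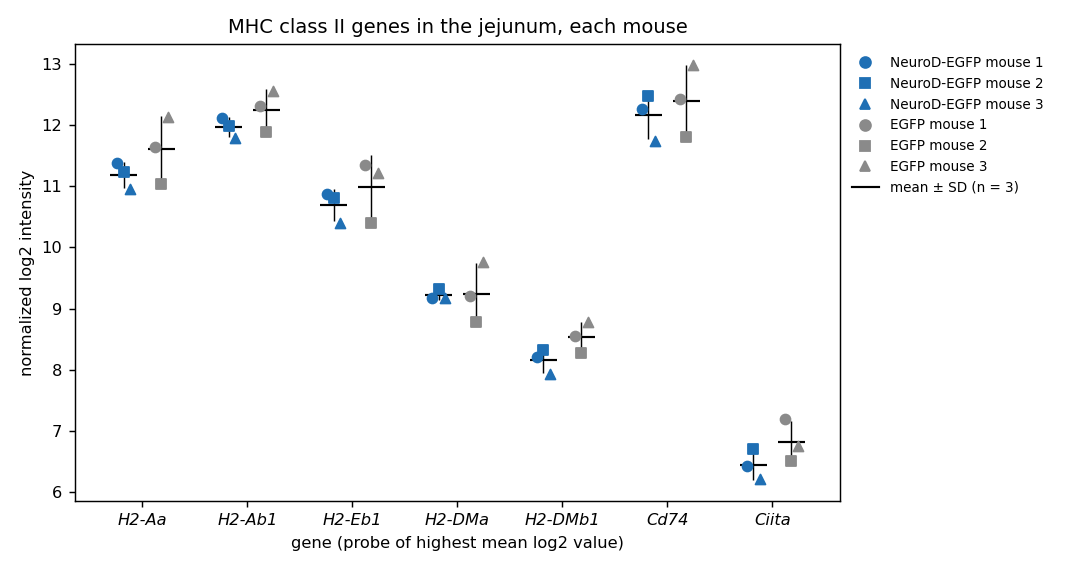
Normalized log2 intensity of the 7 class II genes (y axis) in each mouse, NeuroD-EGFP mice in blue to the left of EGFP mice in grey, with the mean and SD of 3 mice as black lines and a symbol for each mouse number. The groups overlap in every gene, EGFP mouse 3 (grey triangle) is the highest in 5 of 7 genes and NeuroD-EGFP mouse 3 (blue triangle) is the lowest in 6 of 7.

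H2-Aa and H2-Ab1 encode the alpha and beta chains of I-A, the class II molecule that C57BL/6 mice display. The single H2-Aa probe (ILMN_2734729) had a log2 intensity of 11.37, 11.23 and 10.95 in the NeuroD-EGFP mice and of 11.64, 11.03 and 12.13 in the EGFP mice. EGFP mouse 2 lay among the NeuroD-EGFP mice and EGFP mice 1 and 3 above them. The means were 11.18 ± 0.21 in NeuroD-EGFP mice and 11.60 ± 0.55 in EGFP mice (SD, n = 3 each), a difference of -0.42 (standard error 0.28, 95% interval -1.08 to 0.25, limma adjusted p = 0.928), or 0.75-fold. In the deposited intensities, before normalization, the same probe had 2570.2, 2165.3 and 1643.7 in the NeuroD-EGFP mice against 3870.2, 2253.4 and 4404.5 in the EGFP mice. Of the members, H2-Aa had the difference farthest below 0.

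H2-Ab1 was read by 3 probes. The brightest (ILMN_1226525) had 12.12, 11.99 and 11.79 in the NeuroD-EGFP mice and 12.31, 11.88 and 12.55 in the EGFP mice, with EGFP mouse 2 again inside the range of the NeuroD-EGFP mice. Its difference was -0.28 (standard error 0.20, 95% interval -0.77 to 0.20, limma adjusted p = 0.929). The other two probes gave -0.32 (standard error 0.31) and -0.39 (standard error 0.20), so the 3 readings of the gene lay within 1 standard error of each other.

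H2-Eb1 encodes the beta chain of I-E. Its partner H2-Ea carries a promoter deletion in C57BL/6 mice, which therefore display no I-E. H2-Eb1 (ILMN_1239102) had 10.88, 10.80 and 10.40 in the NeuroD-EGFP mice, against 11.35, 10.40 and 11.22 in the EGFP mice. The lowest mouse of each group had the same value to 2 decimals, and the difference of -0.30 (standard error 0.28, limma adjusted p = 0.943) was close to its standard error. The H2-Ea probe was detected in 0 of 3 NeuroD-EGFP mice and 1 of 3 EGFP mice, with deposited intensities of 17.2, 7.6 and 14.6 in the NeuroD-EGFP mice against 28.6, 26.4 and 23.6 in the EGFP mice, and was not tested.

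H2-DMa and H2-DMb1 encode the alpha and beta chains of DM, which stays in the endosome and removes the invariant chain remnant from class II. H2-DMa (ILMN_2866856) had 9.18, 9.32 and 9.17 in the NeuroD-EGFP mice against 9.20, 8.77 and 9.77 in the EGFP mice. The EGFP mice lay on both sides of the NeuroD-EGFP mice, and the difference was -0.03 (standard error 0.25, 95% interval -0.61 to 0.56, limma adjusted p = 0.997). A second H2-DMa probe gave -0.14 (standard error 0.21). H2-DMb1 (ILMN_1244977) had 8.21, 8.33 and 7.93 in the NeuroD-EGFP mice and 8.56, 8.27 and 8.78 in the EGFP mice, where only NeuroD-EGFP mouse 2 reached into the range of the EGFP mice. Its difference of -0.38 (standard error 0.19, 95% interval -0.82 to 0.06) had the lowest unadjusted p of the brightest class II probes, 0.082, with a limma adjusted p of 0.917. H2-DMb1 and H2-DMb2 are near-identical, so a probe of one may read both. The H2-DMb2 probe had 8.09, 8.17 and 7.61 in the NeuroD-EGFP mice, against 8.17, 7.47 and 8.86 in the EGFP mice, a difference of -0.21 (standard error 0.35).

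Cd74, on chromosome 18, encodes the invariant chain, which fills the groove of new class II molecules and carries them to the endosome. Its brightest probe (ILMN_1221817) had 12.26, 12.47 and 11.73 in the NeuroD-EGFP mice and 12.42, 11.79 and 12.97 in the EGFP mice. Mice 2 and 3 of the 2 groups were thus in opposite order, and the difference of -0.24 (standard error 0.33, limma adjusted p = 0.956) was smaller than its standard error. A further probe, annotated to the other transcript form, had 12.14, 12.30 and 11.78 in the NeuroD-EGFP mice against 12.38, 11.98 and 12.98 in the EGFP mice, a difference of -0.37 (standard error 0.27). The dimmest Cd74 probe gave -0.14 (standard error 0.27).

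Ciita, on chromosome 16, encodes the coactivator that switches on the other members and was read by 2 probes that disagreed in direction. The probe annotated to the gene's RefSeq transcript (ILMN_2678211) had 6.43, 6.71 and 6.21 in the NeuroD-EGFP mice and 7.20, 6.52 and 6.75 in the EGFP mice, a difference of -0.37 (standard error 0.22, 95% interval -0.90 to 0.15, limma adjusted p = 0.92). The second probe (ILMN_2568407), annotated to a cDNA clone, had 5.86, 6.07 and 5.70 in the NeuroD-EGFP mice and 5.18, 5.09 and 5.56 in the EGFP mice, so all NeuroD-EGFP mice lay above all EGFP mice. It was detected in 3 of 3 NeuroD-EGFP mice and in 1 of 3 EGFP mice, at deposited intensities of 39.1, 47.1 and 29.8 in the NeuroD-EGFP mice against 23, 14.0 and 29.5 in the EGFP mice, so in mouse 3 the 2 groups differed little before normalization. Its difference was 0.60 (standard error 0.18, 95% interval 0.17 to 1.03, limma adjusted p = 0.917). It was the only one of the 13 class II probes whose groups did not overlap. Of all tested probes, 5.6% were higher in all NeuroD-EGFP mice than in any EGFP mouse. The second Ciita probe met the detection filter only through the NeuroD-EGFP mice, the group where it was higher. The filter thus favoured this direction, and the difference is a description only. Leaving out 1 mouse at a time gave 0.51 to 0.72 for this probe, with limma adjusted p = 0.157 at the lowest, without EGFP mouse 3. Averaging both probes turned the Ciita difference to 0.11. Whether the second probe reads the Ciita messenger was not tested.

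The class II genes varied more between the EGFP mice than between the NeuroD-EGFP mice. The SD was larger in the EGFP mice for 7 of 7 genes, with a median SD of 0.21 in NeuroD-EGFP mice and 0.50 in EGFP mice. The same held for 74.4% of all tested genes, whose median SDs were 0.14 in NeuroD-EGFP mice and 0.26 in EGFP mice, so the larger spread of the EGFP mice was shared with most of the array. For each mouse, the 7 genes were centred on their own means over the 6 mice and averaged. This class II level was -0.05, 0.00 and -0.38 in the NeuroD-EGFP mice against 0.26, -0.31 and 0.48 in the EGFP mice. The lowest mouse belonged to the NeuroD-EGFP group and the second lowest to the EGFP group. EGFP mouse 3 was the highest for 5 of 7 genes, where 26.7% of all tested genes were highest in that mouse, and EGFP mouse 1 for H2-Eb1 and Ciita. NeuroD-EGFP mouse 3 was the lowest for 6 of 7 genes, against 12.5% of all tested genes, and EGFP mouse 2 for H2-DMa.

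The class II genes moved together from mouse to mouse. Over the 6 mice, the 21 pairs of members had Pearson r between 0.26 and 0.99, with a median of 0.83 (Spearman rho 0.66 to 1, median 0.83), all positive. H2-Aa and H2-Ab1, the I-A pair, had r = 0.99, and H2-DMa with Ciita had the lowest, 0.26. The 15 pairs without Ciita had a median of 0.87 and the 6 pairs with Ciita one of 0.63. Without EGFP mouse 3 and NeuroD-EGFP mouse 3, the mice farthest from the median class II level, the 21 pairs had r between 0.30 and 1 over 4 mice, with a median of 0.73. These correlations are descriptions over 6 points that share array, tissue piece and scaling within a mouse, and that include both groups.

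The 8 other genes whose pattern over the 6 mice was most like the class II level were Ddx52 (r = 0.992), Adgre5 (0.985), Ltb (0.976), Dram2 (0.976), Vezt (0.975), Psmd7 (0.974), Nipa1 (0.97) and D6Wsu163e (0.97), chosen from 10777 genes for that likeness. Ltb encodes lymphotoxin beta, a cytokine of lymphocytes, and Adgre5 the leukocyte surface receptor CD97. Adgre5 had 7.83, 7.77 and 7.51 in the NeuroD-EGFP mice against 8.08, 7.45 and 8.28 in the EGFP mice, with the order seen in H2-Aa within each group. The differences of the 8 genes lay between -0.48 and -0.10 and their groups overlapped in each.

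Single mice carried much of the class II differences. Without EGFP mouse 3, the H2-Aa difference was -0.15 and those of H2-DMa and Cd74 turned to 0.23 and 0.05, and the median of the members less that of all genes was -0.16 in place of -0.30. Without EGFP mouse 2, the same median was -0.53, the H2-Aa difference was -0.70, and 4 of the 7 genes had an unadjusted p under 0.05, as did 1018 of all 10777 genes (9.45%) in that fit, against 513 with all mice. In either case no member reached an adjusted p under 0.05 from limma. Without EGFP mouse 3, 18 genes of the whole array passed, none of them a class II member. Without NeuroD-EGFP mouse 3, the difference of Cd74 was -0.03 and that of H2-DMa was -0.0001.

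**Figure D2:**
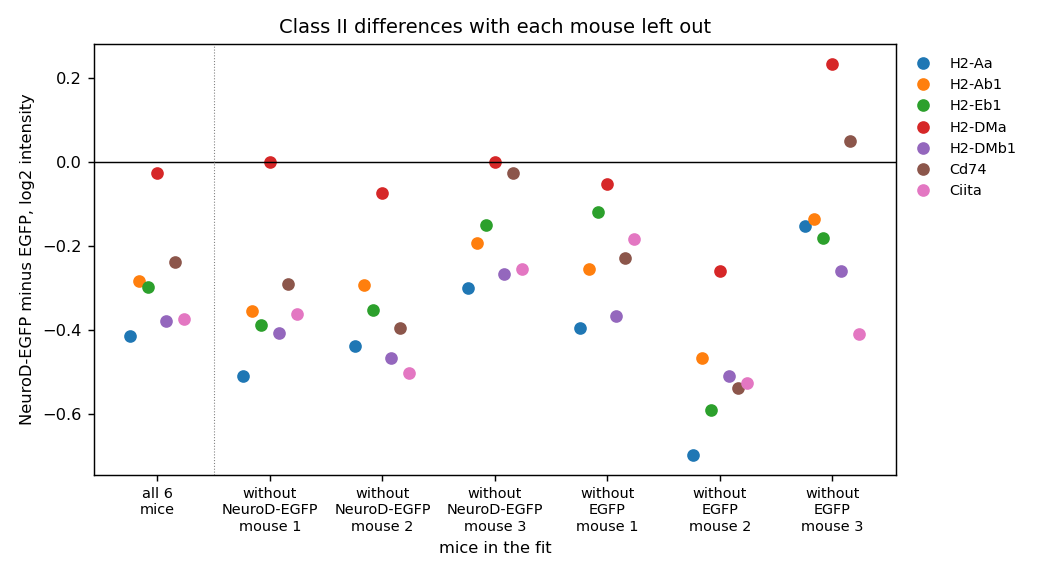
Difference in log2 intensity, NeuroD-EGFP minus EGFP (y axis), of each class II gene (colours) in all 6 mice and with each mouse left out in turn (x axis). H2-DMa and Cd74 cross 0 without EGFP mouse 3, and all 7 genes lie farthest below 0 without EGFP mouse 2.

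The remaining genes of the class II region and of its transcription were less uniform. Of 6 other class II locus genes, 4 could be tested, 2 lower and 2 higher, with a median of -0.02 and none called. H2-Oa, a chain of the DM inhibitor DO, had 0.13 (standard error 0.20), while its partner H2-Ob was detected in 1 EGFP mouse only. Another H2-Oa probe gave -0.22 (standard error 0.28). H2-Eb2, an atypical beta chain gene, had -0.17 (standard error 0.14). Btnl2, a butyrophilin-like gene beside the class II genes that is expressed in gut epithelium, had 9.83, 9.71 and 9.79 in the NeuroD-EGFP mice against 10.26, 9.99 and 8.69 in the EGFP mice, with EGFP mouse 3 the lowest where it was the highest for H2-Aa. Of the 8 genes of the factors that sit on the X and Y boxes shown above, 5 were tested, 3 lower and 2 higher, with a median of -0.03. Rfxap, a subunit of the RFX complex, had 8.22, 8.24 and 8.36 in the NeuroD-EGFP mice and 7.91, 8.06 and 7.78 in the EGFP mice. Its NeuroD-EGFP mice lay above all EGFP mice, as in 5.44% of all tested genes, with a difference of 0.35 (standard error 0.14, limma adjusted p = 0.917). Creb1, of the X2 box, had -0.31 (standard error 0.19), and Nfyb and Nfyc, of NF-Y, had -0.03 (standard error 0.15) and 0.08 (standard error 0.13). Another Creb1 probe, detected on 4 arrays, went the other way, at 0.47 (standard error 0.23). It met the detection filter only through the NeuroD-EGFP mice, the group where it was higher. Rfx5, Nfya and Atf1 were not tested.

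Upstream of Ciita, interferon-gamma signals through its receptor, the kinases Jak1 and Jak2, and the factor Irf1. Ifng itself was near background. Its brighter probe was detected in EGFP mouse 1 alone, at an intensity of 64.4, and its second probe in no mouse. By its brightest probe, each of the 7 tested genes of this route had a lower mean in the NeuroD-EGFP mice. Their median was -0.16 and none was called. Without NeuroD-EGFP mouse 3, and also without EGFP mouse 2, 5 were lower and 2 higher. Dimmer probes of the receptor gene Ifngr2 gave 0.17 (standard error 0.17) and 0.15 (standard error 0.15). A dimmer Usf1 probe of this route gave 0.23 (standard error 0.25). Dimmer Jak1 probes gave 0.006 and -0.09, and the tested dimmer Irf1 and Jak2 probes were lower. Irf1 had 12.40, 12.30 and 12.22 in the NeuroD-EGFP mice against 12.77, 12.60 and 12.24 in the EGFP mice, a difference of -0.23 (standard error 0.17) in which EGFP mouse 3 lay with the NeuroD-EGFP mice. Irf2 had -0.17 (standard error 0.15) and Jak1 -0.16 (standard error 0.17). Socs1 was not tested.

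In the endosome, proteases prepare both the invariant chain and the peptides. Of 7 tested genes of this step 5 were lower and 2 higher, with a median of -0.11 and none called. Ctss, the cathepsin that cuts the invariant chain in antigen-presenting cells, had 9.90, 9.81 and 9.70 in the NeuroD-EGFP mice against 10.33, 9.85 and 10.31 in the EGFP mice, where EGFP mouse 2 was again the one inside the range of the NeuroD-EGFP mice. Its difference was -0.36 (standard error 0.18, limma adjusted p = 0.917), and that of cathepsin H, Ctsh, was -0.36 (standard error 0.21). Ifi30, a thiol reductase of the endosome, had 0.15 (standard error 0.24). On the surface, where MARCH1 marks class II for removal and CD80 and CD86 give T cells a second signal, 6 of 8 genes were lower and 2 higher, with a median of -0.21. Cd86 had 6.57, 6.39 and 5.86 in the NeuroD-EGFP mice against 7.27, 6.43 and 6.74 in the EGFP mice, a difference of -0.54 (standard error 0.27). Dimmer Cd86 probes gave 0.29 (standard error 0.25) and -0.20 (standard error 0.33). Cd274, the inhibitory ligand PD-L1, had -0.72 (standard error 0.37), and Cd83, which holds class II at the surface of dendritic cells, had -0.41 (standard error 0.22). Cd80 had 0.27 (standard error 0.22) and Marchf1 -0.07 (standard error 0.36). None of the 8 was called.

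Class I molecules carry peptides from the cytosol to CD8+ T cells, and their genes differed from class II most in EGFP mouse 3. Their mean level over 12 genes was 0.01, -0.06 and -0.22 in the NeuroD-EGFP mice against 0.48, 0.08 and -0.29 in the EGFP mice, so EGFP mouse 3, the highest for class II, was the lowest for class I. The correlation of the class I with the class II level over the 6 mice was r = 0.10 (rho = -0.09), and r = 0.67 over 4 mice without EGFP mouse 3 and NeuroD-EGFP mouse 3. Of the 12 genes 8 were lower and 4 higher, with a median of -0.07 and none called, and without EGFP mouse 3 the counts were 11 and 1 and the median -0.25. Nlrc5, the relative of Ciita that acts on class I genes, had 6.99, 6.67 and 6.29 in the NeuroD-EGFP mice and 8.39, 7.14 and 7.26 in the EGFP mice. All its NeuroD-EGFP mice lay below all EGFP mice, as in 5.93% of all tested genes, with a difference of -0.94 (standard error 0.35, limma adjusted p = 0.917). Tap1, a chain of the peptide transporter, had -0.36 (standard error 0.31) and H2-K1, a class I heavy chain, -0.02 (standard error 0.22). The difference between Nlrc5 and Ciita was not tested.

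Markers of several cell types, only some of which carry class II, were read beside these values, and their part in the result was not tested. Over the 6 mice the class II level ran with macrophage and monocyte markers (r = 0.92, rho = 0.89), B cell markers (r = 0.92, rho = 0.89) and plasma cell markers (r = 0.86, rho = 0.89), and without the 2 farthest mice r was 0.96, 0.99 and 0.84 over 4 mice. These are 3 of 14 lists set against the class II level. Dendritic cell markers, with 3 genes tested, had r = 0.19 (rho = 0.20). The endosomal genes had r = 0.83 (rho = 0.94), the surface genes 0.67, the other class II locus genes 0.64 and the interferon-gamma route 0.21. The genes of the X and Y box factors had r = -0.79 (rho = -0.77), and r = -0.36 over the same 4 mice. The summed intensity of the 7 class II genes was 11171 to 14978 in NeuroD-EGFP mice and 11601 to 22305 in EGFP mice. That of the 10 tested macrophage and monocyte markers of 13 was 3447 to 4818 in NeuroD-EGFP mice and 2875 to 5546 in EGFP mice, and 5 of them were lower and 5 higher, with a median of 0.0044 (0.12 without EGFP mouse 3). Lyz2, lysozyme of macrophages, had 10.45, 10.69 and 9.64 in the NeuroD-EGFP mice against 10.69, 9.13 and 11.002 in the EGFP mice, with the same lowest mouse in each group as H2-Aa and a difference of -0.01 (standard error 0.51). Other Lyz2 probes, detected on 6 arrays, disagreed in direction, at -0.38 (standard error 0.72) and 0.58 (standard error 0.38). In the probe at 0.58, NeuroD-EGFP mouse 2 and EGFP mouse 1 were the lowest of their groups. Mrc1, the mannose receptor, had 7.22, 7.27 and 7.28 in the NeuroD-EGFP mice against 8.02, 7.42 and 8.28 in the EGFP mice. Its NeuroD-EGFP mice lay below all EGFP mice, as in 5.93% of all tested genes, with a difference of -0.65 (standard error 0.23, limma adjusted p = 0.917). Adgre1, the macrophage receptor F4/80, had 7.96, 7.94 and 7.98 in the NeuroD-EGFP mice against 7.88, 7.73 and 7.84 in the EGFP mice. Its NeuroD-EGFP mice lay above all EGFP mice, as in 5.44% of all tested genes, with a difference of 0.14 (standard error 0.13). Another Adgre1 probe, also detected on 6 arrays, went the other way, at -0.10 (standard error 0.18), and its groups overlapped.

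Of 12 B cell markers only 4 were tested, with a summed intensity of 255 to 371 in NeuroD-EGFP mice and 323 to 483 in EGFP mice and a median difference of -0.23. The defining markers Ms4a1, Pax5 and Cd22 were not above background on enough arrays, Cd79a was not named here, and Cd79b, part of the B cell receptor, had 6.92, 7.12 and 6.12 in the NeuroD-EGFP mice against 6.99, 5.82 and 7.32 in the EGFP mice. Blnk, an adaptor of that receptor, had -0.54 (standard error 0.24). Of 5 tested plasma cell markers 3 were lower and 2 higher, with a median of -0.04, and Jchain, the joining chain of secreted antibodies, had -0.31 (standard error 0.27). Of 10 dendritic cell markers 3 were tested, Itgae, Siglech and Batf3, with a summed intensity of 669 to 1016 in NeuroD-EGFP mice and 860 to 1208 in EGFP mice. Itgax, Flt3, Zbtb46, Xcr1, Clec9a, Ccr7 and Cd209a were detected on fewer than 3 arrays and were not tested. Itgae, an integrin shared by mucosal dendritic cells and intraepithelial lymphocytes, had -0.58 (standard error 0.30). T cell markers had a median of -0.49 over 7 tested genes, 6 lower and 1 higher, and r = 0.32 with class II. Their summed intensity was 2733 to 3403 in NeuroD-EGFP mice and 2861 to 3597 in EGFP mice. The higher gene was Cd8b1, the brightest of the 7 and so the largest part of the sum, at 0.11 (standard error 0.14). A dimmer Cd8b1 probe had -0.99 (standard error 0.25, limma adjusted p = 0.836), with all NeuroD-EGFP mice below all EGFP mice. Groups did not overlap, in either direction, in 11.1% of all tested probes. Cd6, a T cell surface receptor, had -0.66 (standard error 0.26, limma adjusted p = 0.917), and Cd4, the coreceptor that binds class II, was detected in 1 mouse. Without EGFP mouse 3 the T cell median was -0.72. Group 3 innate lymphoid cells, which can also carry class II, were read by 3 genes of 6, 2 lower and 1 higher, with a median of -0.13 (0.15 without EGFP mouse 3), r = 0.76 with class II and Il7r, the interleukin-7 receptor, at -0.33 (standard error 0.15).

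The mean level of the epithelial markers ran against the class II level (r = -0.84, rho = -0.89, and r = -0.97 over 4 mice without the 2 farthest), though single markers differed. Of 11 tested markers 2 were lower and 9 higher, with a median of 0.11 and none called, and a median of 0.12 without EGFP mouse 3. Their mean level was 0.09, 0.11 and 0.11 in the NeuroD-EGFP mice against -0.01, 0.18 and -0.48 in the EGFP mice, and their summed intensity was 103295 to 113293 in NeuroD-EGFP mice and 81628 to 109916 in EGFP mice. The genes lowest in EGFP mouse 3 included Apoa4, given above, Fabp1, a fatty acid binding protein, at 7.81, 7.46 and 7.24 in the NeuroD-EGFP mice against 7.16, 7.61 and 4.97 in the EGFP mice, and Alpi, the intestinal alkaline phosphatase, at 11.83, 11.72 and 11.81 in the NeuroD-EGFP mice against 13.32, 13.22 and 10.85 in the EGFP mice. Alpi thus had the lower mean in the NeuroD-EGFP mice, with a difference of -0.68 (standard error 0.62). Epcam and Cdx1, also epithelial markers, were instead highest in EGFP mouse 3. Epcam had 9.14, 9.51 and 9.70 in the NeuroD-EGFP mice against 8.98, 9.24 and 9.77 in the EGFP mice. Cdx1 had 9.49, 9.64 and 9.48 in the NeuroD-EGFP mice against 8.88, 9.32 and 9.79 in the EGFP mice. Vil1, the villus actin binder, had 13.45, 13.83 and 13.83 in the NeuroD-EGFP mice against 13.52, 13.63 and 13.64 in the EGFP mice. In Vil1, NeuroD-EGFP mice 2 and 3 thus lay above every EGFP mouse. Bright epithelial transcripts were present in every mouse, as the jejunum label requires. Endothelial markers, which stand for another tissue compartment, had a median of 0.03 over 6 tested genes, with Lyve1, a receptor of lymphatic vessels, at -0.37 (standard error 0.22). Their r with class II was 0.29, and 0.83 over 4 mice without the 2 farthest.

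**Figure D3:**
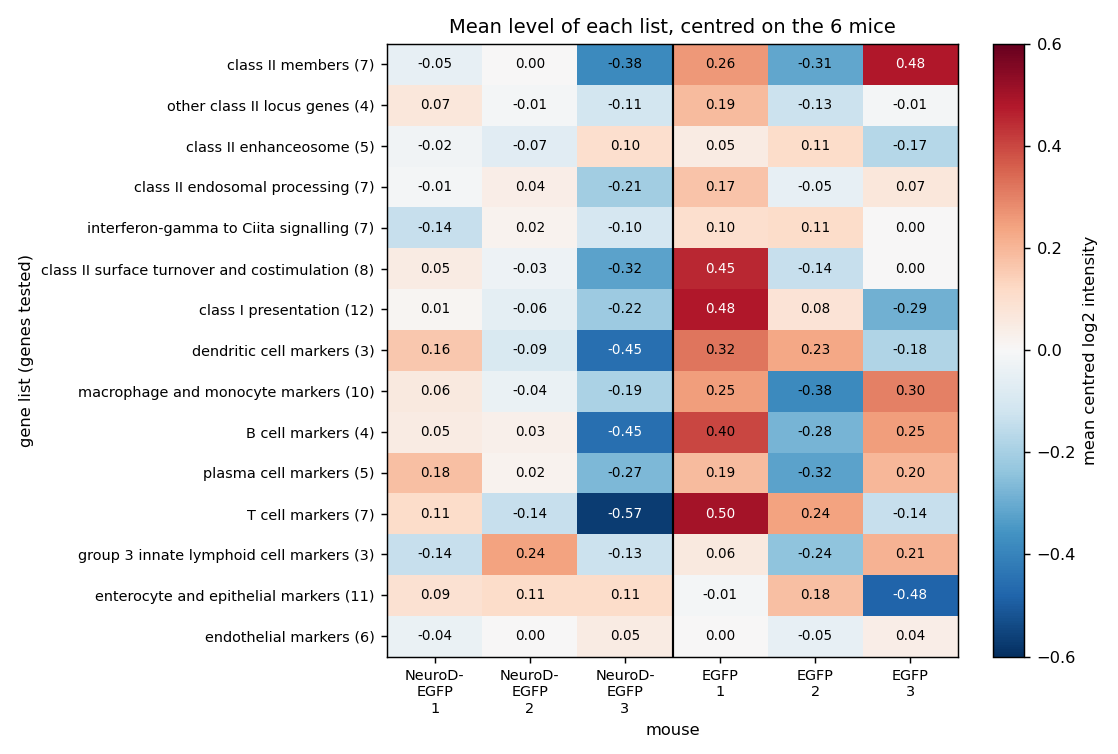
Mean log2 intensity of each gene list (rows, with the number of genes tested), each gene centred on its mean over the 6 mice, in each mouse (columns, NeuroD-EGFP mice to the left of the line and EGFP mice to the right), from blue (low) to red (high). Class II, macrophage, B cell and plasma cell rows are low in NeuroD-EGFP mouse 3 and EGFP mouse 2 and high in EGFP mouse 1 and EGFP mouse 3, while the class I row is high in EGFP mouse 1 alone and the epithelial row is lowest in EGFP mouse 3.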

How the data were processed

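Jejunum RNA of 6 mice was measured on 1 array per mouse, grouped by the submitters' labels (3 NeuroD-EGFP, 3 EGFP). The authors deposited background-subtracted probe intensities with a detection p-value beside each, and log2 values that equal log2 of those intensities, with 4 for signals at or below 0 (24.4% to 26.1% per array) and no scaling between arrays. The scanner software is not given in the sources used here. Here neqc of limma 3.58.1 (R 4.3.3, offset 16) turned the intensities into log2 values by normexp correction and quantile normalization. Of 45281 probes, 19099 with detection p under 0.05 on at least 3 of 6 arrays were tested by lmFit and eBayes, with p-values adjusted over all of them (Benjamini-Hochberg). Probes were named by the platform annotation, updated through a RefSeq table; 34885 had 1 symbol, 18 several and 10378 none here. A gene is given by its tested probe of highest mean log2 value.

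The text names all 7 members and, from each of 15 lists, genes of lowest unadjusted p and defining markers near background, with the 8 genes most like the class II level; other list genes were named after their values were seen. Members and lists were chosen with earlier results of these data known. The smallest two-sided p of an exact permutation test is 0.1 with 3 mice a group, and the number of arrays limits the precision. Other settings were the authors' log2 values, an offset of 50, scaling to the 75th percentile, other detection filters, array weights, another eBayes prior, a replicate block, probe means, the methods' t-test and each mouse left out in turn. The methods' t-test was kept as an alternative because limma pools the spread across probes. Promoters came from RefSeq (GRCm38.p6); probe positions were not used here.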

Additional observations from a re-analysis of the deposited data

How the results depend on the processing

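The count of class II genes at an adjusted p under 0.05 was 0 in every setting run, by limma and by the methods' t-test (on the normalized values of all 6 mice, 0 members at an unadjusted p under 0.05 by either). At that unadjusted threshold there was 1 member in the authors' unscaled log2 values, where 11.4% of all genes passed, and 4 without EGFP mouse 2, where 9.45% passed. Across settings the lowest adjusted p of a member was 0.441, in the unscaled values, where the median of all genes was -0.27 and that of the members -0.57. Taken relative to all genes, the class II median was -0.30 in the main setting, -0.33 to -0.28 under the other settings and -0.53 to -0.16 when 1 mouse was left out. Of 119 gene values under alternatives, 115 kept their direction. The exceptions were H2-DMa at 0.084 with array weights, Ciita at 0.11 with the mean of its probes, and, without EGFP mouse 3, H2-DMa at 0.23 and Cd74 at 0.0496. With each mouse left out, the differences ranged from -0.70 to -0.15 for H2-Aa, -0.47 to -0.13 for H2-Ab1, -0.59 to -0.12 for H2-Eb1, -0.26 to 0.23 for H2-DMa, -0.51 to -0.26 for H2-DMb1, -0.54 to 0.05 for Cd74 and -0.53 to -0.18 for Ciita. The cause was not tested.

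Mice with the same number in the labels deviated from their group means with correlations of 0.31, -0.09 and 0.19 over 10777 genes. The labels do not say that the numbers pair mice. Mice of different numbers were not compared in this way, so whether the numbers pair mice was not tested. With the replicate number as a block, the class II median less that of all genes was -0.30 and 0 members were called, with a lowest adjusted p of 0.894, and 575 genes had an unadjusted p under 0.05, against 513 without the block. The second Ciita probe, H2-Ea and the B cell markers lay near background, where the arrays resolve differences least. The RefSeq Ciita probe was dimmer than the other members but was detected in every mouse, at deposited intensities of 48.5 to 163.9.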
